A study of Mus musculus with 6 samples.

Results

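Translation initiation factors are the proteins that bring the small ribosomal subunit and the initiator tRNA to the start codon of an mRNA. The genes described here are the rows of the count table whose symbols begin with Eif and a digit from 1 to 6, without the eIF2 kinases, and with a mean of at least 10 counts over the libraries. Of 56734 gene symbols, 81 matched by name and 55 reached the minimum. Of these 55, 49 are factors, their subunits or binding proteins. The other 6 are the pseudogenes Eif4a-ps4, Eif3s6-ps1, Eif3s6-ps2 and Eif1-ps1, the Eif1ad relative Eif1ad15, and Eif2c5, which carries the old eIF2C name of the Argonaute family and is annotated as a noncoding RNA.

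RNA came from B16-OVA, mouse B16 melanoma cells engineered to make ovalbumin, a model tumor antigen. The 6 libraries were 3 of WT cells and 3 of Ythdf2 knockout cells (Ythdf2-KO), all grown in DMEM with serum and antibiotics and given no further treatment in the labels. The WT titles carry the tag gNC and the knockout titles gY2, which the labels do not spell out. The labels state neither whether the knockout was 1 clone nor whether the replicates were separate cultures, so p-values measure the spread between these libraries, which may be technical. The product of Ythdf2 is a reader of the RNA mark N6-methyladenosine and is known to speed the decay of marked mRNAs.

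In the best-known route, eIF4E binds the cap of the mRNA, eIF4G serves as the scaffold and the helicase eIF4A opens the leader, together forming eIF4F. The small subunit arrives with eIF3, eIF1, eIF1A, eIF5 and the ternary complex of eIF2, GTP and initiator tRNA. eIF2B reloads eIF2 with GTP, and the 4E-binding proteins hold eIF4E back when mTORC1 signalling is low. Many tumors, melanoma among them, depend on this machinery for growth.

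The libraries held 55660473 to 69497273 counts, and a count of 3 equalled 0.0433 to 0.0540 counts-per-million (CPM, scaled by TMM factors as everywhere below). Ythdf2 itself stood at 124, 124 and 125 CPM in WT, against 100.1, 101 and 104 CPM in Ythdf2-KO, a fall of 1.23-fold (edgeR adjusted p = 4.08e-13), so most of its mRNA remained in the cells labelled as knockout, and gene counts show neither the edit nor the protein. The defining melanocytic markers were present in every library, and their summed level was 237 to 241 CPM in WT and 1401 to 1431 CPM in Ythdf2-KO, with 7 of 7 called higher. Summed markers of fibroblasts and endothelium were at 513 to 529 CPM in WT, most of it Dcn, and at 55.6 to 56.4 CPM in Ythdf2-KO, with 3 of 4 called lower. Leukocyte markers summed to 9.71 to 10.7 and 11.9 to 13.1 CPM, nearly all of it Lyz2, with 1 called higher and 1 lower. Cd3e had no count in 4 of 6 libraries, 2 in WT replicate 3 and 8 in Ythdf2-KO replicate 3. Ptprc had 2, 6 and 5 counts in WT and 2, 0 and 74 in Ythdf2-KO, most of them in Ythdf2-KO replicate 3. Epithelial markers stayed at or under 0.527 CPM. Mitochondrially encoded transcripts took 1.08 to 1.33% of counts in WT and 1.57 to 1.82% in Ythdf2-KO. WT replicate 2 stood somewhat apart from the other WT libraries (chi-square per degree of freedom over genes 12.8 and 14.2, against 4.15 between replicates 1 and 3 and 113 to 136 between the genotypes). The part of these differences in the results below was not tested. In bulk RNA, fewer cells of a type and less RNA per cell cannot be told apart.

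Initiation factor mRNAs differed in many places between the genotypes, mostly downward and by small amounts. Of the 54 members with enough counts to be tested, 27 were lower and 8 higher in Ythdf2-KO (edgeR's quasi-likelihood test at an adjusted p under 0.05, with Benjamini-Hochberg correction over 17718 genes). Among all genes tested, 49.9% were called, 25.8% lower and 24.1% higher, and among genes with a mean of at least 10 CPM 66.6% were called, 38.8% lower and 27.8% higher. The members' share of 64.8% called therefore lies near that of other genes at such levels. With upper-quartile scaling the split was 18 lower and 10 higher, so that 35.7% of the members' calls were higher against 22.9% in the main setting. Of all genes' calls 59.2% were then higher, against 48.3%. That scaling moved the fitted value of 16 of the 35 called members by over 1.5 times, and offsets for transcript length and GC moved 11. Without WT replicate 2 there were 24 lower and 8 higher members. The median log2 fold change of the members was -0.068, beside -0.0053 for all genes tested and -0.033 for genes at 10 CPM or more. The libraries of the genotypes did not overlap for 37 members (68.5%), against 55.9% of all genes tested and 70.4% of those at 10 CPM or more.

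Few members differed by much. Only 7 of the 54 were called with a fold of at least 1.2, where 28.4% of all genes tested were, and 26.7% of those at 10 CPM or more. These 7 were Eif4ebp1, Eif6, Eif2b1 and Eif2s2, which were lower, and Eif4ebp2, Eif4e3 and Eif2c5, which were higher. Of the members, 83.3% differed by less than 1.2-fold in either direction, against 73.1% of genes at 10 CPM or more.

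**Figure D1:**
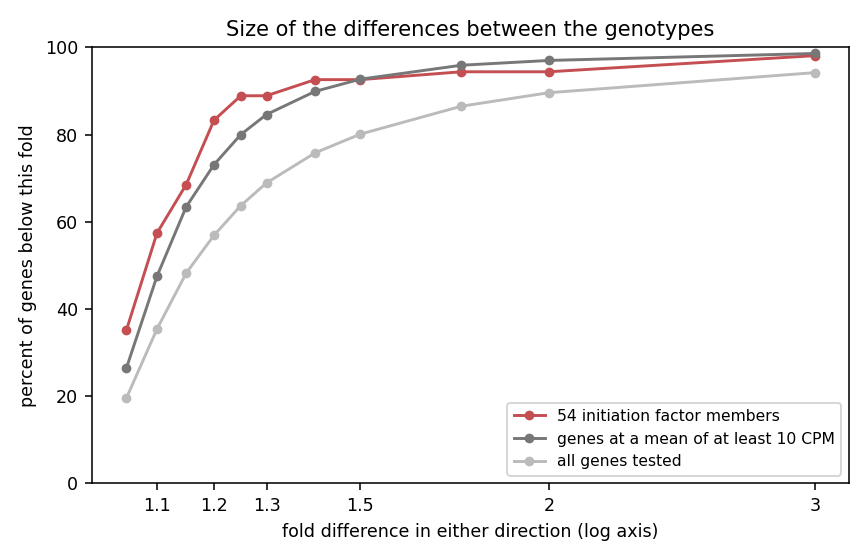
Share of genes (percent) whose fitted fold difference between Ythdf2-KO and WT lies below the fold on the log x axis, in either direction, for the 54 tested members, for genes at a mean of at least 10 CPM and for all genes tested. The members' line runs above both others up to 1.4-fold, at 57.4% below 1.1-fold against 47.5% and 35.4%.

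Of the eIF4E-binding proteins, which compete with eIF4G for eIF4E, Eif4ebp1 and Eif4ebp2 went in opposite directions. Eif4ebp1, which encodes 4E-BP1, stood at 162, 169 and 161 CPM in replicates 1 to 3 of WT, against 106, 101 and 107 CPM in those of Ythdf2-KO. Its fall of 1.57-fold was the largest among the called members (log2 fold change -0.65 ± 0.027 SE, n = 3 per group; edgeR adjusted p = 7.91e-25). Eif4ebp2, which encodes 4E-BP2, stood at 141, 147 and 137 CPM in WT, against 171, 175 and 185 CPM in Ythdf2-KO. It rose 1.25-fold (log2 fold change 0.32 ± 0.029 SE; edgeR adjusted p = 2.02e-11), and with the length and GC offsets the log2 fold change was smaller, 0.19, and still called (edgeR adjusted p = 4.12e-07). Every Ythdf2-KO library lay below every WT library for Eif4ebp1 and above for Eif4ebp2.

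Within each library, which needs no scaling between libraries, Eif4ebp1 made up 53.4, 53.4 and 54.1% of the counts of the pair in WT and 38.3, 36.6 and 36.6% in Ythdf2-KO. The ratio of Eif4ebp1 to Eif4ebp2 was thus 1.96-fold lower in Ythdf2-KO, with no overlap between the genotypes (exact permutation test over 6 libraries, two-sided, p = 0.1, the smallest that 3 against 3 can give; adjusted p = 0.15 over 9 pairs). Together the genes summed to 298 to 316 CPM in WT and 276 to 292 CPM in Ythdf2-KO. Relative to Eif4e, their summed counts were 1.11, 1.14 and 1.08 times its count in WT and 1.16, 1.15 and 1.24 times in Ythdf2-KO. The exchange between the genes was therefore larger than the change of their sum. The third relative, Eif4ebp3, had 1 to 11 counts per library and fell below the minimum. Eif4enif1, which encodes a protein that carries eIF4E into the nucleus and to P-bodies, was at 109, 109.9 and 113 CPM in WT, against 117, 113 and 114 CPM in Ythdf2-KO and was not called (edgeR adjusted p = 0.140). It was called higher with upper-quartile factors (adjusted p = 0.00108 by edgeR) and with a filter at a mean of 5 CPM (adjusted p = 0.0144), and its sign turned with the length and GC offsets, where its log2 fold change was -0.027.

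**Figure D2:**
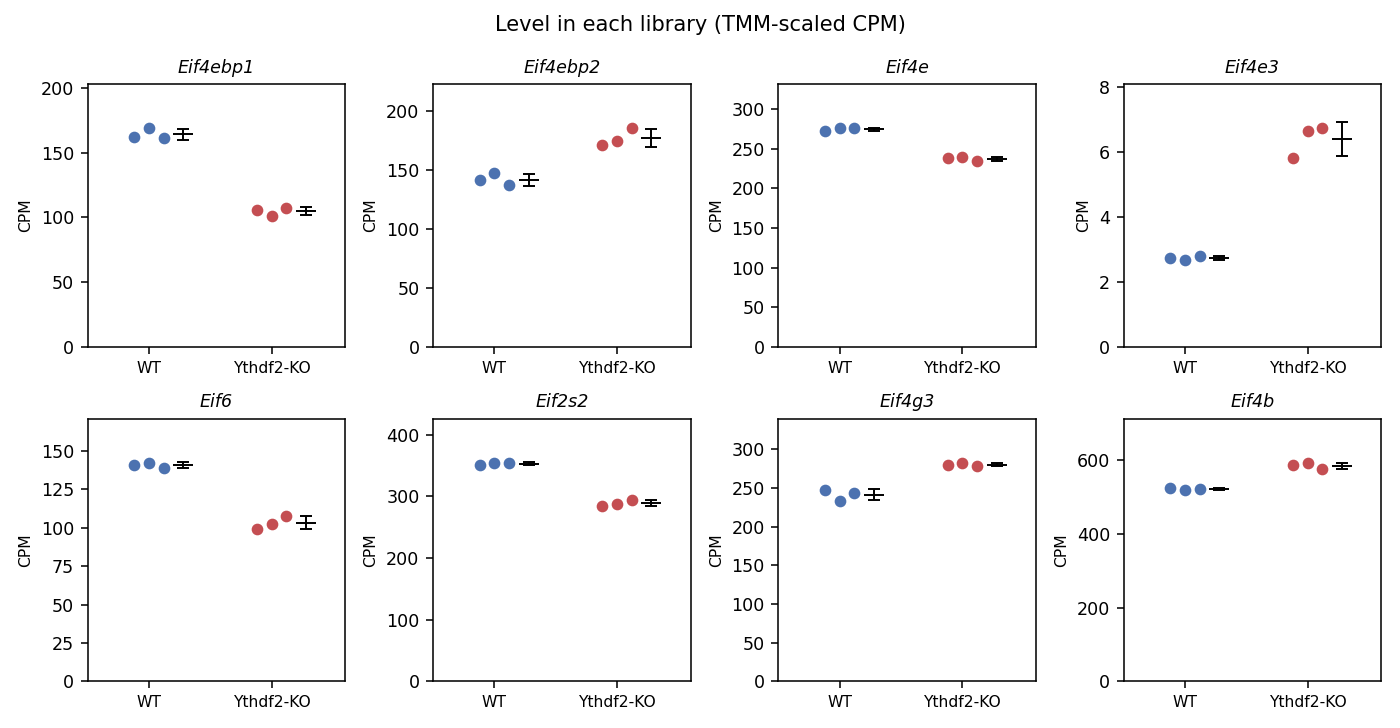
TMM-scaled CPM (y axis, from 0) of 8 initiation factor genes in each of the 3 WT (blue) and 3 Ythdf2-KO (red) libraries, with the mean and SD in black beside the points. In all 8 panels the genotypes' libraries do not overlap, with Eif4ebp1, Eif4e, Eif6 and Eif2s2 lower and Eif4ebp2, Eif4e3, Eif4g3 and Eif4b higher in Ythdf2-KO.

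Among the cap-binding proteins, the main one fell slightly and a scarce relative rose. Eif4e stood at 273, 276 and 276 CPM in WT, against 238, 239.6 and 235 CPM in Ythdf2-KO, a fall of 1.16-fold (log2 fold change -0.21 ± 0.022 SE; edgeR adjusted p = 2.42e-11). Eif4e2, which encodes a cap-binding protein (4EHP) that does not join eIF4G and can repress translation, fell 1.09-fold, from 163 ± 3.57 to 149 ± 3.76 CPM (SD, n = 3); its log2 fold change of -0.13 was -0.074 with upper-quartile factors and -0.19 with the offsets, called in both. Eif4e3, which encodes an atypical cap-binding relative, was at 2.74, 2.69 and 2.79 CPM in WT, against 5.80, 6.66 and 6.73 CPM in Ythdf2-KO. Some of its annotated exons overlap Gm20696 on the same strand. Eif4e3 rose 2.33-fold, the largest rise among the called members that encode proteins (log2 fold change 1.22 ± 0.11 SE; edgeR adjusted p = 1.16e-12). Even so, its level per kilobase of transcript was 1.09 CPM in WT, against 55.1 CPM per kilobase for Eif4e. The ratio of Eif4e to Eif4e3 counts was 2.70-fold lower in Ythdf2-KO and that of Eif4e to Eif4e2 1.06-fold lower, both without overlap between the genotypes (exact permutation test, p = 0.1 for each; adjusted p = 0.15). The oocyte-type relative Eif4e1b had 2, 8 and 1 counts in WT and 10, 8 and 38 in Ythdf2-KO, too few to be tested under the filter. With every gene kept it was called higher (log2 fold change 2.24 ± 0.65 SE; edgeR adjusted p = 0.00258), with 38 of its counts in 1 library.

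Close relatives among the scaffold and helicase genes of eIF4F differed unequally, and the calls of Eif4g1 and Eif4g3 depended on the setting. Eif4g1, which encodes the main scaffold, was at 1166, 1201 and 1157 CPM in WT, against 1108, 1112 and 1146 CPM in Ythdf2-KO, a fall of 1.05-fold (edgeR adjusted p = 0.00669). This call was lost with upper-quartile scaling, with every gene kept, and without WT replicate 2 or Ythdf2-KO replicate 1 (edgeR adjusted p = 0.0672 to 0.614). With offsets for length and GC content of the transcript, the fall of Eif4g1 was larger (log2 fold change -0.20; edgeR adjusted p = 2.42e-09). Its relative Eif4g3, which encodes a second scaffold able to bind eIF4E, was at 247, 233 and 243 CPM in WT, against 279, 282 and 278 CPM in Ythdf2-KO. It rose 1.16-fold (log2 fold change 0.22 ± 0.023 SE; edgeR adjusted p = 4.91e-11), but with the same offsets its log2 fold change was 0.041 and it was not called (edgeR adjusted p = 0.238). The ratio of Eif4g1 to Eif4g3 was 1.22-fold lower in Ythdf2-KO, without overlap (exact permutation test, p = 0.1; adjusted p = 0.15). Eif4g2, which encodes the scaffold DAP5 that lacks the eIF4E-binding site, was the most abundant of the group. It fell 1.08-fold, from 1795 ± 33.8 to 1655 ± 10.8 CPM (SD, n = 3; edgeR adjusted p = 2.41e-06). Its log2 fold change of -0.12 was -0.063 with upper-quartile factors and -0.23 with the offsets, called in both.

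Eif4a1, which encodes the main helicase, stood at 1015, 1041 and 1029 CPM in WT, against 913, 900.2 and 914 CPM in Ythdf2-KO, a fall of 1.13-fold (log2 fold change -0.18 ± 0.020 SE; edgeR adjusted p = 1.43e-10). Its relative Eif4a2 was at 186, 164 and 193 CPM in WT, against 191, 193 and 182 CPM in Ythdf2-KO and was not called (edgeR adjusted p = 0.545), but it was called higher with every gene kept (edgeR adjusted p = 0.0302) and with the length and GC offsets (edgeR adjusted p = 0.0394). WT replicate 2 was the lowest of the 6 for Eif4a2, whose annotated exons overlap small nucleolar RNA genes such as Snord2 and Snora81. Exons also overlap genes on the same strand for Eif4a1 (Gm22988 and Gm24029), Eif4g2 (Gm23262) and Eif5 (Snora28). The ratio of Eif4a1 to Eif4a2 was 1.18-fold lower in Ythdf2-KO, without overlap (exact permutation test, p = 0.1; adjusted p = 0.15), and its log2 difference of -0.24 became -0.17 without WT replicate 2. The processed pseudogene Eif4a-ps4 was listed at 144 ± 2.77 CPM in WT, against 126 ± 3.90 CPM in Ythdf2-KO (SD, n = 3). The ratio of Eif4a1 to this pseudogene differed 1.01-fold between the genotypes, with overlapping libraries. Whether the authors' counting split reads between these sequences is not stated in the sources at hand. Eif4a3, which encodes a helicase of the exon junction complex, fell 1.06-fold (edgeR adjusted p = 0.00354), a call lost with upper-quartile factors (adjusted p = 0.255 by edgeR) and with every gene kept regardless of its counts (edgeR adjusted p = 0.0586). Of the proteins that stimulate eIF4A, Eif4b rose 1.12-fold, from 525, 519.6 and 522 CPM to 586, 593 and 576 CPM (log2 fold change 0.16 ± 0.020 SE; edgeR adjusted p = 3.60e-09), and with the offsets its log2 fold change was 0.084 (edgeR adjusted p = 0.00707). Eif4h fell 1.06-fold, from 444 ± 6.70 to 417 ± 7.69 CPM (SD, n = 3), and lost its call with upper-quartile factors (adjusted p = 0.101 by edgeR).

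**Figure D3:**
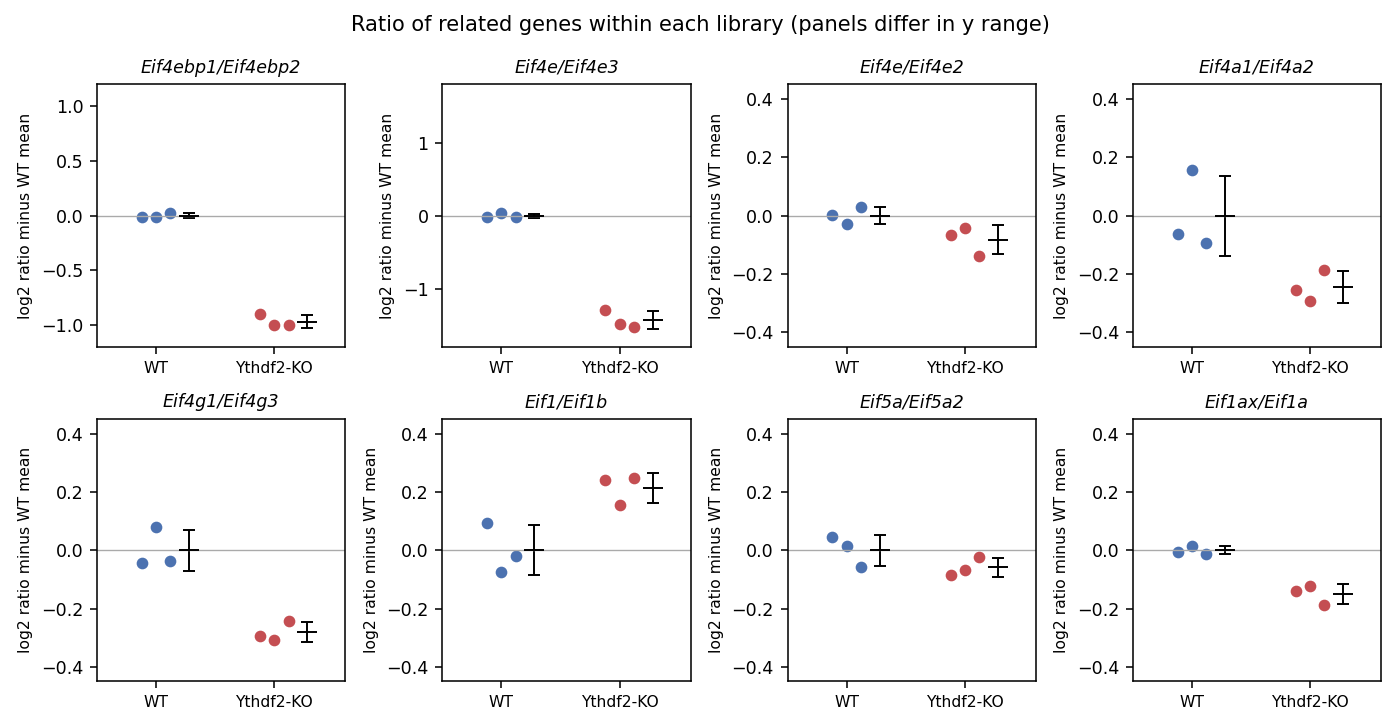
Log2 ratio of the counts of 2 related genes within each library, minus the mean of the WT libraries (y axis; the range differs between panels), with the mean and SD in black. The ratio of Eif4ebp1 to Eif4ebp2 is about 1 log2 unit lower in Ythdf2-KO (-0.97) and that of Eif4e to Eif4e3 differs by -1.43, while Eif5a to Eif5a2 overlaps between the genotypes.

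The promoters of 4 members of this cap-binding machinery that fell, Eif4e, Eif4a1, Eif4g1 and Eif4h, share a 6-base element. It is CACGTG, the canonical E-box, which is bound by MYC and by the MITF family among other factors, and which reads the same on both strands. The stretches below, from RefSeq promoters on GRCm38, show it in capitals, and each reads 5′ to 3′ on the strand of its gene. For Eif4e the printed copy lies 64 bases before the annotated start, at chr3:138527192-138527221 (plus strand), for Eif4a1 189 bases before, at chr11:69672595-69672624 (minus strand), for Eif4g1 54 bases before, at chr16:20672661-20672690 (plus strand), and for Eif4h 96 bases before, at chr5:134639488-134639517 (minus strand). Not printed are another copy in Eif4e, 228 bases before the start, and another in Eif4g1, at base 16 counted from the start. The calls of Eif4g1 and Eif4h were lost with upper-quartile factors, as given above.
Eif4e: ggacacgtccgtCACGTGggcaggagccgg
Eif4a1: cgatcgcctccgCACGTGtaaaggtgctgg
Eif4g1: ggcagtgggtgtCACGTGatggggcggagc
Eif4h: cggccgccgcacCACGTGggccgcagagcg
Of the 39 members matched to the RefSeq windows of 250 bases before to 50 after the start, 10 held CACGTG, the other 6 being Eif1b, Eif3a, Eif3f, Eif3k, Eif5a and Eif5a2; the printed 4 were picked for their shared role and direction. This is 25.6% of them, against 8.09% of all 27025 genes with a window and 11.3% of the 11381 tested genes with one. Of these 10 members, 6 were lower, none higher and 4 not called in the main setting. Of all 39 members with a window, 21 were lower, 7 higher and 11 not called. With upper-quartile factors Eif3k and Eif5a lost their calls as well (edgeR adjusted p = 0.625 and 0.616), and Eif3a was called higher (edgeR adjusted p = 0.0127). The direction of these members thus depended on the scaling. The letters CCGGAAG, a site of the ETS type, were in 15 of the 39 windows on either strand (38.5%, against 18.9% of tested genes), of which 8 members were lower, 1 higher and 6 not called. A match of letters is a description and does not show that a factor binds.

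Of all genes tested 25.8% were called lower, and of those at 10 CPM or more 38.8%. Beside this, the 3 subunit genes of eIF2 that were tested, whose products carry the initiator tRNA, all fell. Eif2s2, the gene of the beta subunit and the most abundant of them, was at 350.3, 354 and 354 CPM in WT, against 285, 288 and 295 CPM in Ythdf2-KO, a fall of 1.22-fold (log2 fold change -0.29 ± 0.022 SE; edgeR adjusted p = 1.34e-15). Eif2s1, which encodes the alpha subunit that stress kinases phosphorylate, fell 1.12-fold, from 218, 226 and 226 CPM to 203, 198 and 197 CPM (edgeR adjusted p = 3.21e-08). Eif2s3x, the X-linked gene of the gamma subunit, fell 1.07-fold, from 212 ± 7.02 to 199 ± 4.62 CPM (SD, n = 3). The call for Eif2s3x was lost with upper-quartile factors (adjusted p = 0.130 by edgeR), and without WT replicate 2 its log2 fold change was -0.057 against -0.096 (edgeR adjusted p = 0.0474). Its Y-linked copy Eif2s3y had no count in any library, which allows at most the level of 3 counts given above, so no ratio of these copies could be taken.

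Of the tRNA-delivering factors outside eIF2, Eif2a fell and Eif2d rose. Eif2a, which despite its name encodes no subunit of eIF2, was at 95.2, 93.7 and 96.1 CPM in WT, against 89.3, 84.1 and 87.1 CPM in Ythdf2-KO, a fall of 1.09-fold (edgeR adjusted p = 2.11e-04). With upper-quartile factors its log2 fold change was -0.075 against -0.13, still called (edgeR adjusted p = 0.0255). Eif2d, whose product can deliver the initiator tRNA without GTP and takes part in ribosome recycling, rose 1.15-fold, from 17.8, 18.8 and 19.2 CPM to 21.6, 22.2 and 20.5 CPM (edgeR adjusted p = 0.00203). Denr and Mcts1 encode a dimer that resembles eIF2D. Denr fell 1.41-fold, from 163 ± 1.76 to 116 ± 4.48 CPM (SD, n = 3; edgeR adjusted p = 1.01e-20), and Mcts1 was at 27.2 ± 2.44 and 27.1 ± 0.305 CPM and was not called (edgeR adjusted p = 0.988).

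Of the 5 subunits of eIF2B, the exchange factor that reactivates eIF2 and is the target of stress signalling, 3 fell and none rose. This share of 60% called stands beside 49.9% of all genes tested and 66.6% of those at 10 CPM or more. Eif2b1, the alpha subunit, was at 84.7, 90.1 and 86.8 CPM in WT, against 70.6, 67.4 and 74.9 CPM in Ythdf2-KO, a fall of 1.23-fold (log2 fold change -0.30 ± 0.033 SE; edgeR adjusted p = 6.85e-10). Eif2b3, the gamma subunit, fell 1.19-fold, from 49.0, 49.5 and 50.3 CPM to 42.6, 40.9 and 42.0 CPM (edgeR adjusted p = 2.30e-07). Eif2b2, the beta subunit, fell 1.07-fold, but its call was lost under 9 of 15 alternatives, and without Ythdf2-KO replicate 2 its log2 fold change was -0.068 against -0.10. The catalytic subunit gene Eif2b5 was at 103, 106 and 103 CPM in WT, against 100.5, 99.2 and 104 CPM in Ythdf2-KO, and Eif2b4 at 36.3 ± 0.903 and 35.2 ± 1.12 CPM (SD, n = 3), neither of them called, though Eif2b5 was called lower with the length and GC offsets (edgeR adjusted p = 0.0384). The subunits of this complex thus differed unequally, with log2 fold changes from -0.30 to -0.038.

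Genes of start-codon selection went both ways. Eif1, whose product keeps the scanning ribosome open until a start codon is found, rose 1.09-fold, from 272, 277 and 269 CPM to 296, 292 and 306 CPM (log2 fold change 0.13 ± 0.023 SE; edgeR adjusted p = 5.43e-06). Its near-copy Eif1b was at 23.7 ± 1.59 and 22.3 ± 0.499 CPM (SD, n = 3) and was not called (edgeR adjusted p = 0.160). The ratio of Eif1 to Eif1b was 1.16-fold higher in Ythdf2-KO, without overlap (exact permutation test, p = 0.1; adjusted p = 0.15). Eif5, which encodes the GTPase activator of eIF2, rose 1.05-fold, from 242, 246 and 256 CPM to 260.1, 262 and 258 CPM (edgeR adjusted p = 0.0120). That call was lost at an adjusted p under 0.01, with the length and GC offsets, and without WT replicate 1 or Ythdf2-KO replicate 2 (edgeR adjusted p = 0.0120 to 0.210).

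Of the genes for eIF1A, which binds beside eIF1 on the small subunit, the X-linked one fell. Eif1ax was at 254, 261 and 263 CPM in WT, against 231, 239 and 226 CPM in Ythdf2-KO, a fall of 1.12-fold (edgeR adjusted p = 1.10e-07). With upper-quartile factors its log2 fold change was -0.11 against -0.16, still called (edgeR adjusted p = 2.73e-04). Its autosomal relative Eif1a was at 124, 125 and 128 CPM and at 123, 126 and 125 CPM and was not called (edgeR adjusted p = 0.756). The log2 ratio of Eif1ax to Eif1a was 1.05 ± 0.014 in WT and 0.90 ± 0.034 in Ythdf2-KO (SD, n = 3; exact permutation test, p = 0.1), a pair chosen after the table was read, and near-identical copies can share counts. Eif1ad, which encodes a protein with an eIF1A-like domain, fell 1.16-fold, from 61.1 ± 1.77 to 52.9 ± 1.83 CPM (SD, n = 3). Its annotated exons overlap Banf1 on the other strand, and whether counting used strand is not stated in the sources at hand.

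The eIF3 complex, the largest factor and the platform that joins the small subunit to eIF4G, had 7 of 14 genes lower and none higher, a share of 50% called beside 49.9% of all genes tested and 66.6% of those at 10 CPM or more. Eif3d, whose product can itself bind the cap of some mRNAs, fell 1.17-fold, from 159, 163 and 161 CPM to 135, 139 and 137 CPM (log2 fold change -0.23 ± 0.024 SE; edgeR adjusted p = 4.11e-11). Eif3j1, which encodes the loosely bound subunit, fell 1.17-fold as well, from 122, 126 and 128 CPM to 110.01, 107 and 105 CPM (edgeR adjusted p = 1.27e-09). Exons of both overlap genes on the opposite strand in the annotation, a noncoding gene for Eif3d and Spg11 for Eif3j1. Eif3j2, a copy of Eif3j1, was listed at 2.85 ± 0.702 and 2.86 ± 1.44 CPM (SD, n = 3), and the ratio of the copies overlapped between the genotypes (exact permutation test, p = 0.9; adjusted p = 0.9).

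Within the octamer of eIF3, built of the subunits a, c, e, f, h, k, l and m, the genes Eif3e, Eif3k and Eif3m fell and the other 5 were not called. The call of Eif3k was lost under 9 of 15 alternatives, among them DESeq2 and leaving out WT replicate 1, WT replicate 2 or Ythdf2-KO replicate 1 (adjusted p = 0.0671 with DESeq2 and 0.0685 to 0.133 by edgeR without those libraries). That of Eif3e was lost with upper-quartile factors, with every gene kept and with the offsets (edgeR adjusted p = 0.0706 to 0.406). Eif3m fell 1.11-fold, from 157, 158 and 155 CPM to 142, 139 and 145 CPM (edgeR adjusted p = 2.80e-06); its log2 fold change of -0.14 was -0.090 with upper-quartile factors and -0.091 with the offsets, called in both. Eif3a, the scaffold subunit, was at 515, 523 and 510.3 CPM in WT, against 506, 526 and 518 CPM in Ythdf2-KO, so its libraries overlapped (edgeR adjusted p = 0.978). Eif3c, Eif3f, Eif3h and Eif3l had log2 fold changes of -0.024, -0.020, -0.018 and -0.046. In the module of b, g and i, Eif3g fell from 144 ± 2.87 to 131 ± 0.710 CPM (SD, n = 3) and Eif3b 1.05-fold, from 648, 640.2 and 628 CPM to 609, 606 and 618 CPM, while Eif3i was not called. With upper-quartile factors the log2 fold change of Eif3g was -0.082 against -0.14, still called (edgeR adjusted p = 0.00338). The call of Eif3b was lost with upper-quartile factors, with every gene kept and without WT replicate 1 (edgeR adjusted p = 0.134 to 0.670), and with the offsets its log2 fold change was -0.13 against -0.064. With upper-quartile factors 4 eIF3 genes were lower and 1, Eif3a, was higher (edgeR adjusted p = 0.0127). With the length and GC offsets 8 were lower and none higher. Among those 8 were Eif3a and Eif3c (log2 fold changes -0.066 and -0.087, edgeR adjusted p = 0.0408 and 0.00662), so Eif3a had opposite calls by setting. Eif3l was called lower without Ythdf2-KO replicate 3 (edgeR adjusted p = 0.0318).

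**Figure D4:**
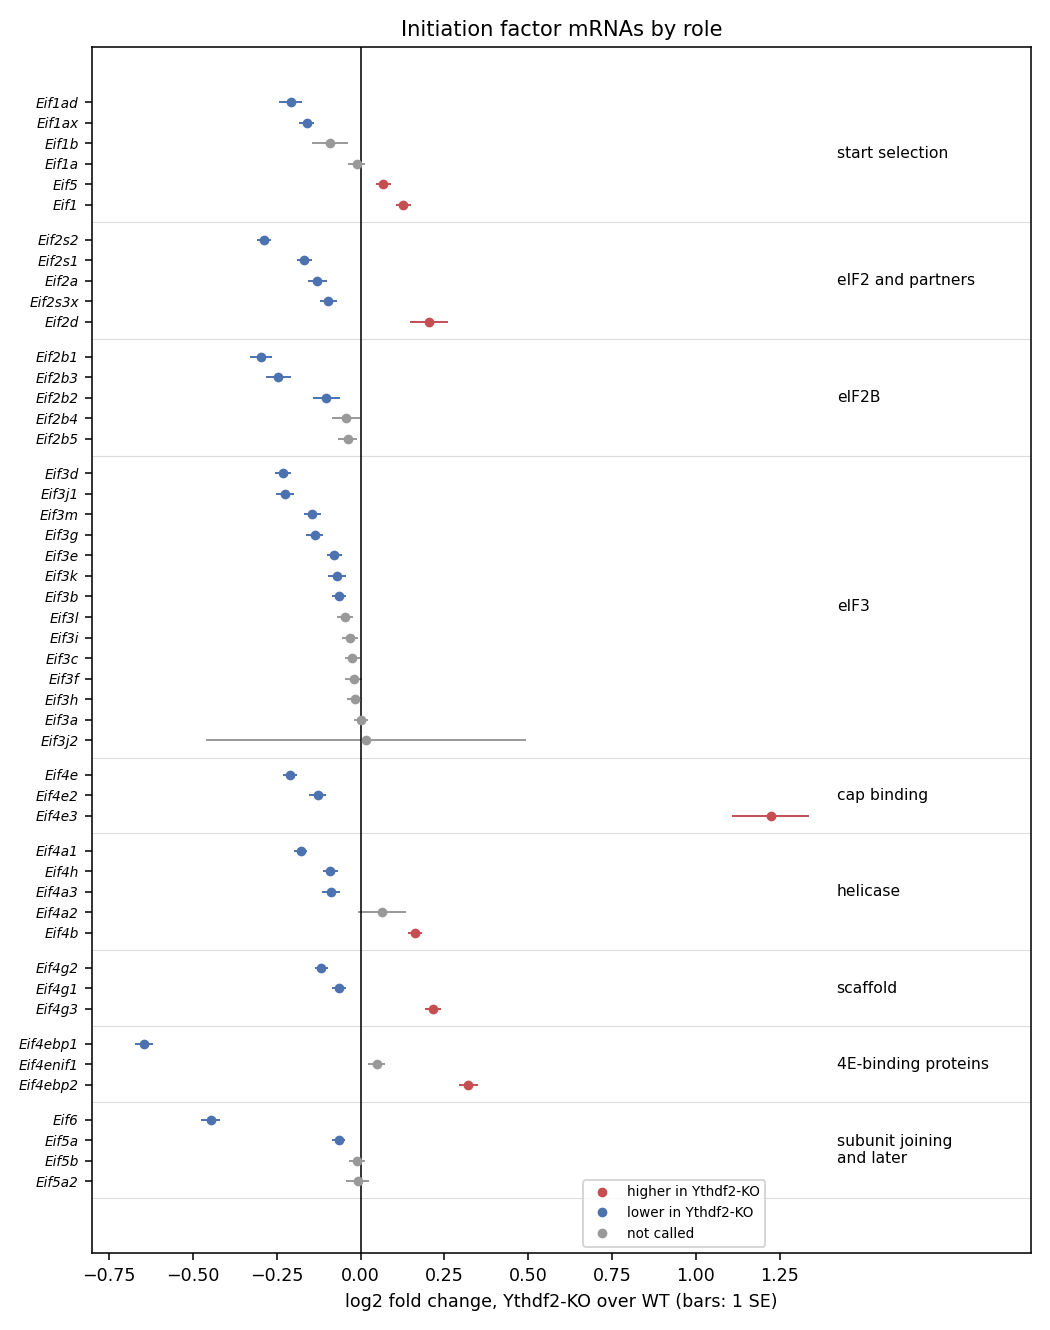
Log2 fold change of Ythdf2-KO over WT (x axis) with bars of 1 SE for the 48 tested initiation factor genes, grouped by role; red points were called higher, blue lower and grey not called (edgeR's quasi-likelihood test, adjusted p under 0.05). Most points lie between -0.30 and 0.32, with Eif4ebp1 at -0.65, Eif6 at -0.45 and Eif4e3 at 1.22 outside.

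Of the factors acting after the start codon is found, Eif6 stood out. Its product binds the large ribosomal subunit, keeps it from joining too early and is needed to build it. Eif6 was at 141, 142 and 138 CPM in WT, against 99.3, 102 and 108 CPM in Ythdf2-KO. It fell 1.36-fold (log2 fold change -0.45 ± 0.028 SE; edgeR adjusted p = 1.79e-18), with every Ythdf2-KO library below every WT library. Eif5b, which encodes the GTPase that joins the subunits, was at 220.2, 235 and 228 CPM and at 233, 221 and 224 CPM and was not called (edgeR adjusted p = 0.758), but with the length and GC offsets it was called lower (log2 fold change -0.12; edgeR adjusted p = 0.000325).

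Eif5a encodes a factor that carries the modified residue hypusine and acts mainly in elongation and termination. Per kilobase of transcript it was listed as the most abundant member, at 594 CPM per kilobase in WT, followed by Eif4a1 at 579.8. These levels are close, and whether reads of Eif4a1 were counted to Eif4a-ps4 is not known, so their order is uncertain. Eif5a fell 1.05-fold, from 855, 860.1 and 844 CPM to 799.7, 815 and 831 CPM (edgeR adjusted p = 0.00607). The call was lost with upper-quartile scaling, with no filter, and without WT replicate 1 or Ythdf2-KO replicate 1 (edgeR adjusted p = 0.0642 to 0.616). Its relative Eif5a2, known for amplification in some cancers, was at 57.4, 59.1 and 60.9 CPM and at 58.8, 59.2 and 58.5 CPM and was not called (edgeR adjusted p = 0.861), but with the offsets it was called lower (log2 fold change -0.097; edgeR adjusted p = 0.0242). The ratio of Eif5a to Eif5a2 overlapped between the genotypes (exact permutation test, p = 0.2; adjusted p = 0.257).

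The 6 members that are no initiation factors were mostly scarce. Eif2c5 rose 3.22-fold, from 0.180, 0.305 and 0.306 CPM to 0.864, 1.05 and 0.679 CPM, from 10 to 21 counts in WT to 47 to 65 in Ythdf2-KO (edgeR adjusted p = 3.53e-05). Eif4a-ps4 fell 1.14-fold (edgeR adjusted p = 2.81e-08), close to its parent as given above. Eif1ad15, Eif1-ps1, Eif3s6-ps1 and Eif3s6-ps2 stayed at or under 3.64 CPM in every library and were not called. The members just inside the minimum were Eif4e1b, with a mean of 11.2 counts, and Eif1ad15, with 11.7. Just outside were Eif1-ps2, with a mean of 9 counts, and Eif5al3-ps, with 7.

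Other genes of the pathway, from lists drawn up beside the members, went both ways. Beside the shares called below stand 49.9% of all genes tested and 66.6% of those at 10 CPM or more. Calls of the genes on these lists, with Denr and Mcts1 above, are those of the main setting. Whether they hold under other scalings or the length and GC offsets was not tested. Of 9 genes of the eIF2 kinases and the phosphatase that reverses them, 3 rose and 2 fell (55.6% called). Ppp1r15b, which encodes the constitutive eIF2 phosphatase adaptor, fell 1.31-fold, from 269 ± 4.21 to 206 ± 2.51 CPM (SD, n = 3; edgeR adjusted p = 1.81e-19), while the stress-induced adaptor gene Ppp1r15a rose 1.28-fold, from 49.4 ± 1.41 to 63.2 ± 2.32 CPM. Eif2ak2, the gene of the RNA-activated kinase PKR, fell from 151 ± 2.32 to 126 ± 3.33 CPM (edgeR adjusted p = 8.25e-12). Eif2ak4, the gene of the amino acid sensor GCN2, rose 1.25-fold, to 79.0 ± 2.10 CPM, and its activator gene Gcn1 1.05-fold. Eif2ak1 and Eif2ak3, which encode the heme-regulated and the endoplasmic reticulum kinases, were not called.

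Of 17 initiation helpers, 9 fell and 4 rose (76.5% called), with a median log2 fold change of -0.077, beside -0.033 for genes at 10 CPM or more. Denr, above, fell the most. Mknk2, which encodes a kinase that phosphorylates eIF4E, rose 1.35-fold, from 86.6, 88.5 and 83.5 CPM to 114, 114 and 121 CPM (edgeR adjusted p = 3.11e-17). Pdcd4 encodes an inhibitor of eIF4A and rose 1.68-fold, from 10.5 ± 0.201 to 17.6 ± 1.09 CPM (SD, n = 3; edgeR adjusted p = 3.78e-13). Pabpc1, which encodes the poly(A)-binding protein that contacts eIF4G, was at 1565 ± 13.3 and 1517 ± 31.0 CPM and was not called (edgeR adjusted p = 0.0579).

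Of 10 elongation and termination genes, 7 fell and 1 rose (80% called). Etf1, which encodes the release factor eRF1, fell 1.11-fold, from 419.6 ± 2.73 to 378 ± 5.39 CPM, and Eef2, which encodes the translocation factor, fell from 1712 ± 47.4 to 1549.7 ± 32.5 CPM (SD, n = 3; edgeR adjusted p = 3.35e-08 and 1.58e-07). The gene that rose was Eef2k, the kinase that inhibits eEF2, by 1.23-fold. Of 10 genes of mTORC1 and the S6 kinases, 5 rose and 2 fell (70% called). The genes that rose encode both core subunits and inhibitors. Mtor, the kinase, rose from 82.1 ± 0.993 to 92.3 ± 3.05 CPM, and Rptor, its substrate-binding partner, from 70.1 ± 0.666 to 83.5 ± 4.87 CPM (SD, n = 3; edgeR adjusted p = 4.57e-06 and 2.50e-08). Tsc2, which encodes an inhibitor of the pathway, rose 1.15-fold to 135 ± 3.85 CPM, and Deptor, which encodes an inhibitory subunit, 1.51-fold, from 7.87 ± 0.713 to 11.9 ± 0.565 CPM (edgeR adjusted p = 1.11e-08 and 1.87e-08). The mitochondrial factor gene Mtif3 fell 1.17-fold with overlapping libraries (edgeR adjusted p = 0.00297), and Mtif2 was not called (edgeR adjusted p = 0.0922).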

How the data were processed

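Polyadenylated RNA was sequenced as paired reads from 3 WT and 3 Ythdf2-KO samples, per the labels' protocols. The authors deposited 1 table of raw whole-number counts by gene symbol; per the submitters' processing notes they used fastp 0.23.2, HISAT2 2.2.1, featureCounts 2.0.6 and GRCm39. How counting treated strand and reads that align more than once is not stated there.

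Columns were matched to samples through the labels. Counts were fitted in R 4.3.3 with edgeR 4.0.16 (filterByExpr, TMM factors, robust quasi-likelihood model, Benjamini-Hochberg over 17718 genes, adjusted p under 0.05); SE is the log2 fold change over the root of F. Ratios of related genes were compared by an exact permutation test over the 6 libraries. The members and lists were chosen with earlier results of these data known. Named were the 6 largest rises and falls among called members, related pairs, the most abundant member of each role and 2 genes per other list by adjusted p. The other members named fill a role. Outside the rule, Ppp1r15a, Eif2ak1, Eif2ak3, Eif2ak4, Gcn1, Mcts1, Pdcd4, Pabpc1, Eef2k, Mtor and Rptor were named after their values were seen. Eif1a was added to start selection after the table was read.

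Transcript lengths (the longest transcript, a coding one where the gene has any) and overlaps came from GENCODE M21 and promoters from RefSeq, both GRCm38, joined by symbol. The fit was tested on simulated data. Alternatives used DESeq2 1.42.0, limma 3.58.1, other scalings and filters, offsets, a replicate block and left-out libraries. Figures used Python 3.11.15 and matplotlib 3.10.9.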

Additional observations from a re-analysis of the deposited data

How the results depend on the processing

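Of the 35 called members, 24 kept their call and 35 their direction under all 15 alternatives (14 for the scarcest), and 9 of 19 members not called were called under at least 1. Counts of lower members ran from 18 (upper-quartile factors) to 31 (length and GC offsets) and of higher members from 7 to 10; with no filter on low counts 20 were lower and 10 higher. The median log2 fold change of the members was -0.014 with upper-quartile factors, -0.045 with no filter, -0.094 with the length and GC offsets, and -0.086 to -0.053 when 1 library was left out, the ends without WT replicate 3 and WT replicate 2. The median of all genes moved by 0.054, 0.022 and -0.047 under the first 3 of these settings, so the members' median minus that of all genes was -0.062, -0.062 and -0.042, beside -0.063 in the main setting; the cause of the remaining difference under the offsets and left-out libraries was not tested. With the replicate block, 27 members were lower and 8 higher, as without it, with a median of -0.068. Same-numbered libraries did not deviate together (correlations 0.0114, -0.0368 and -0.0522). With 3 libraries per genotype, this cannot show whether same-numbered samples shared a culture or a batch. The ratio of Eif4ebp1 to Eif4ebp2 kept a log2 difference of -1.003 to -0.952 without any 1 library. That range does not cover the length and GC offsets, with which the log2 fold changes of Eif4ebp1 and Eif4ebp2 were -0.66 and 0.19, closer together. The ratios with Eif3j2 and Eif4ebp3 changed sign without some libraries, at few counts.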
